A study of Mus musculus with 12 samples.

Results

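The genes described here are 7 interferon-induced genes for small membrane proteins: Ifitm1, Ifitm2, Ifitm3, Ifitm6, Bst2, Ifi27 and Ifi27l2a. They were taken by name, and all 7 were found among the 38887 genes of the count table. The cells were Ly6G+ spleen cells of mice aged 2 days, 7 days, 14 days or 6 weeks, with 3 libraries of polyadenylated RNA for each age and 12 in all. Ly6G is a neutrophil surface protein, and the labels call the cells at every age PMN-MDSC, neutrophil-like cells that restrain T cells. The labels name no treatment or altered gene, and strain, sex and the number of mice behind a library are not given there. It is therefore unknown whether the 3 libraries of an age are separate animals, and every p-value below measures spread between libraries that may be partly technical.

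Interferons bind receptors at the cell surface, and Jak kinases then activate transcription factors. These act on short elements of target promoters, among them the interferon-stimulated response element and the gamma-activated site. Ifitm proteins sit in the plasma membrane or endosomes and hinder the fusion of enveloped viruses with the cell. Bst2, also called tetherin, holds budding virus particles on the cell surface, and the Ifi27 family are small hydrophobic proteins, found in mitochondria for human IFI27. Some neutrophils of healthy mice carry transcripts of interferon-stimulated genes without infection.

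Positions are on mouse build GRCm38, the assembly of mm10, from GENCODE M21. The 4 Ifitm genes lie together on chromosome 7: Ifitm2 at 140954837 to 140955987 on the minus strand, Ifitm1 at 140967221 to 140969825 on the plus strand, Ifitm3 at 141009586 to 141010770 and Ifitm6 at 141015699 to 141017924, both on the minus strand. Bst2 lies on chromosome 8 at 71534255 to 71537456, on the minus strand. Ifi27 and Ifi27l2a are neighbours on chromosome 12, at 103434211 to 103440239 on the plus strand and 103442167 to 103443680 on the minus strand.

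RefSeq promoter windows, running from 250 bases before to 50 bases after a transcript start on build GRCm38.p6, matched 5 of the 7 genes: the 4 Ifitm genes and Bst2. Both strands were searched for 2 motifs: the core of the interferon-stimulated response element, which is TTTC, any 2 bases and TTTC again (GAAA, any 2 bases and GAAA on the other strand), and the gamma-activated site, TTCNNNGAA, which reads the same on both strands. The windows below show the 3 genes with the response element core, followed by Ifitm1, the gene with the widest range of levels, whose window had neither motif. The Ifitm1 and Ifitm6 windows lie inside the annotated genes, so sequence at the outermost annotated starts of these genes was not searched. Capitals mark every match of either motif.
Ifitm2, chr7:140955912-140956211 (minus strand): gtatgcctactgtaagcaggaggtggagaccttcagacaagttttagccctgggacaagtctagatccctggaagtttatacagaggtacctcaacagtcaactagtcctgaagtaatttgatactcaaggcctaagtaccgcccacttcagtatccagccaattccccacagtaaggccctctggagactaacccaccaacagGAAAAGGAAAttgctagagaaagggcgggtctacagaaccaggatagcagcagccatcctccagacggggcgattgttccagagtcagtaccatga
Ifitm3, chr7:141010695-141010994 (minus strand): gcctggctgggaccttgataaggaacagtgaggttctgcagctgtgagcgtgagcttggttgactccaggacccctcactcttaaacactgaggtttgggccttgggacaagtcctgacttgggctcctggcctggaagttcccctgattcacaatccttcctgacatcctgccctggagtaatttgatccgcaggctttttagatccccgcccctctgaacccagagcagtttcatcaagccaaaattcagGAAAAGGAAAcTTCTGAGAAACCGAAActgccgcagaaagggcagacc
Bst2, chr8:71537423-71537722 (minus strand): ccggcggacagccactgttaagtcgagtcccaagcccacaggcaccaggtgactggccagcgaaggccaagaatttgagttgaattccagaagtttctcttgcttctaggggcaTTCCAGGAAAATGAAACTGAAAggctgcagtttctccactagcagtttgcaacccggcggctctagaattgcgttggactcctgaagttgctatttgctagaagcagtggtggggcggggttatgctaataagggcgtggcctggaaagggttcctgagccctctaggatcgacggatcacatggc
Ifitm1, chr7:140967826-140968125 (plus strand): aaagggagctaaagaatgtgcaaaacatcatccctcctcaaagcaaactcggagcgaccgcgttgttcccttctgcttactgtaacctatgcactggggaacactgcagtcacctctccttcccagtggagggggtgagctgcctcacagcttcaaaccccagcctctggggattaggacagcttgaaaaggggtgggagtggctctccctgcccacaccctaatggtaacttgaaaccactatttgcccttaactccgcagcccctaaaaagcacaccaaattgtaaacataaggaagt

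Ifitm3 held the core at 2 places just after the start, with a gamma-activated site between them that overlaps the second. In Bst2 a gamma-activated site and 2 copies of the core overlap each other in 1 run, beginning 136 bases before the start. Ifitm2 held 1 copy, beginning 46 bases before its start, and the window searched for Ifitm6 held only a gamma-activated site, TTCCTTGAA. The core was thus in 3 of these 5 windows and in 3.44% of the 32851 windows of the table, and the gamma-activated site in 3 of 5 and in 8.3%. A match is a string of letters and no evidence of binding.

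Depth was close in all libraries, from 34495767 to 38795913 counts, so counting error is small for all 7 genes, whose lowest count in any library was 436. Levels are CPM, counts per 1000000 counts of the library, with library sizes normalized by trimmed means (TMM). In each library the sum over 12 neutrophil markers, among them Ly6g, S100a8 and Ltf, came to at least 73569 CPM, and no marker was at 0 at any age. Replicate 2 at 2 days and replicate 1 at 14 days stood apart from their partners, with the 2 lowest TMM factors, 0.828 and 0.918, against 0.944 to 1.103 elsewhere. Counts of 4 Y-linked genes summed to 1816 to 4010 per library at 2 and 7 days and to 0 or 1 at 14 days and 6 weeks. Xist, a transcript of female cells, had 4814 to 7552 counts at 2 days and 7432 to 16681 at 7 days. At 14 days it had 11039 to 18660 and at 6 weeks 8371 to 11446. The 2-day and 7-day libraries thus held transcripts of both sexes. The mix of sexes and age cannot be told apart between these 2 ages and the later ones.

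Across the 4 ages, 6 of the 7 genes had their highest mean at 6 weeks, and 5 had their lowest at 7 days. Of all genes tested, 26.2% were highest at 6 weeks and 32.7% lowest at 7 days. Only Ifitm6 was highest at 2 days, Bst2 was lowest at 14 days, and Ifi27 was lowest at 2 days. All 7 differed with age in the joint test of edgeR's quasi-likelihood model, at Benjamini-Hochberg adjusted p-values of 1.14e-06 (Ifi27l2a) to 0.00105 (Bst2), where 69.2% of the 15494 genes tested did so. In sorted cells measured in bulk, fewer cells that carry a transcript and less of it per cell cannot be told apart.

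**Figure D1:**
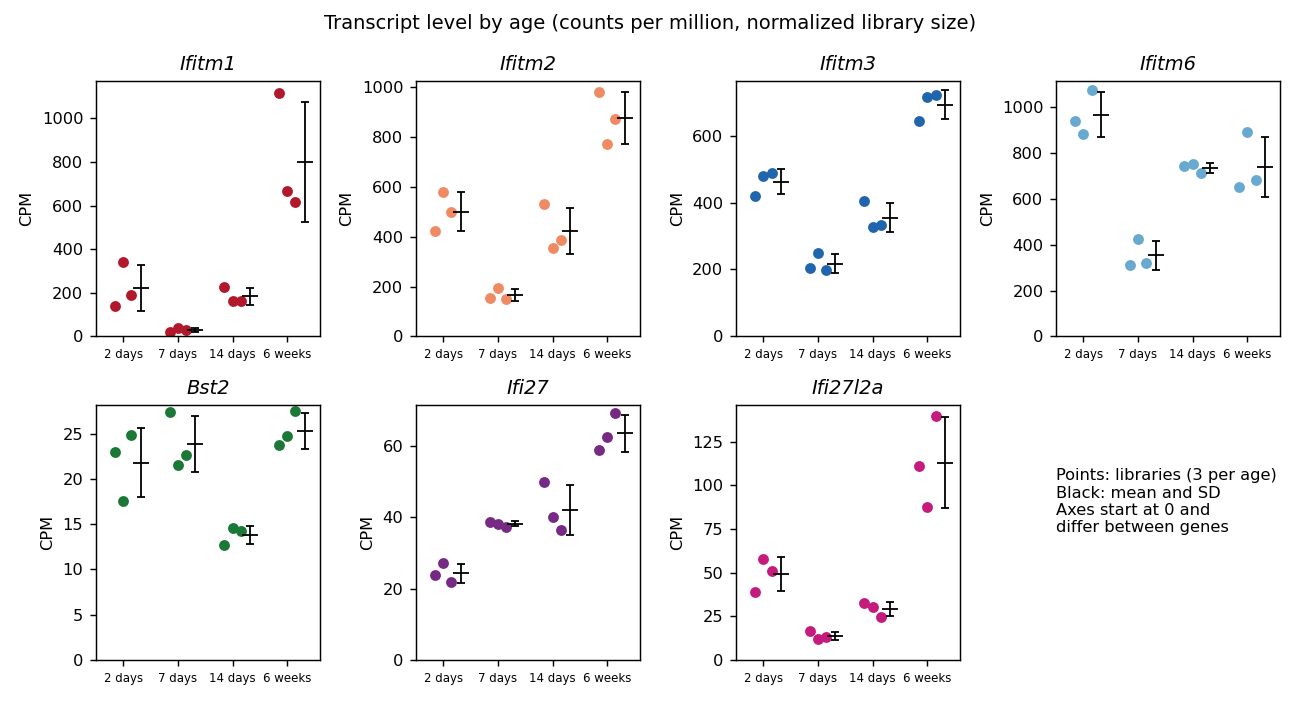
Level of each gene in CPM (linear axis from 0, scale differing between panels) in the 12 libraries by age, with coloured points for libraries and the mean and SD in black. Ifitm1, Ifitm2, Ifitm3, Ifitm6 and Ifi27l2a dip at 7 days, Bst2 dips at 14 days, and Ifi27 is lowest at 2 days.

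Ifitm1, whose human counterpart acts mainly at the plasma membrane, changed most. In libraries 1 to 3 of each age it was at 139, 340.3 and 189.8 CPM at 2 days, at 22.4, 37.3 and 28.0 CPM at 7 days, at 228, 162 and 161 CPM at 14 days, and at 1116, 666 and 618 CPM at 6 weeks. The 7-day libraries lay below, and the 6-week libraries above, all others. The 2-day and 14-day libraries overlapped. Ifitm1 fell to 29.3 ± 7.51 CPM at 7 days, against 223 ± 105 CPM at 2 days (SD, n = 3 each), a log2 fold change of -2.93 (SE 0.35, adjusted p = 3.69e-05 in edgeR), and 1.89% of all genes had a lower value in that comparison. It was higher at 14 days than at 7 days by 2.65 (SE 0.34) and higher at 6 weeks than at 14 days by 2.12 (SE 0.34). Between 6 weeks and 7 days the gap was 27.3-fold (95% interval 15.5 to 48.3). The 14-day and 2-day levels, 184 ± 38.4 and 223 ± 105 CPM, did not differ by the test (log2 fold change -0.28, interval -0.98 to 0.42), and without 2-day replicate 2 that value was 0.17.

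Ifitm2 and Ifitm3, which restrict viruses that enter through endosomes, took the same course over a smaller range. Ifitm2 was at 422, 577 and 500.2 CPM at 2 days, at 154, 194 and 149 CPM at 7 days, at 529.7, 356 and 386 CPM at 14 days, and at 982, 773 and 871 CPM at 6 weeks. All 6-week libraries lay above those of the other ages and all 7-day libraries below. For Ifitm3 the libraries were at 419.7, 478 and 488 CPM at 2 days, at 205, 250.1 and 198 CPM at 7 days, at 406, 326 and 334 CPM at 14 days, and at 643.5, 714 and 721 CPM at 6 weeks. The 4 ages did not overlap, in the order 7 days, 14 days, 2 days and 6 weeks. Ifitm2 averaged 166 ± 25 CPM at 7 days and 499.6 ± 77.8 CPM at 2 days (log2 fold change -1.59, SE 0.19, adjusted p = 3.12e-05 in edgeR), and was 5.28-fold higher at 6 weeks than at 7 days (interval 3.97 to 7.04). Ifitm3 averaged 218 ± 28.3 CPM at 7 days and 462 ± 37 CPM at 2 days (log2 fold change -1.09, SE 0.14, adjusted p = 5.11e-05 in edgeR), and was 3.18-fold higher at 6 weeks than at 7 days (interval 2.59 to 3.91).

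Between 14 days and 2 days Ifitm3 had a log2 fold change of -0.38 (interval -0.67 to -0.09) that missed the threshold narrowly (adjusted p = 0.0556 in edgeR). It passed under 4 of the other analyses with all libraries, DESeq2 among them (adjusted p = 0.0108), and without 2-day replicate 1, 7-day replicate 2, 14-day replicate 1 or both libraries that stand apart, with adjusted p-values over all 21 alternatives from 0.0108 to 0.191. Ifitm2 had a value of -0.24 there (interval -0.63 to 0.15) and was not called.

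Ifitm6, the fourth member of the cluster, shared the dip at 7 days but not the peak at 6 weeks. It was at 943, 886 and 1076 CPM at 2 days, at 313, 427 and 322 CPM at 7 days, at 744, 755 and 713 CPM at 14 days, and at 652, 892 and 682 CPM at 6 weeks. The 7-day libraries lay below all others, and the 6-week libraries overlapped those of 14 days and of 2 days. Ifitm6 fell to 354 ± 63.1 CPM at 7 days, against 968 ± 97.8 CPM at 2 days (log2 fold change -1.45, SE 0.16, adjusted p = 2.39e-05 in edgeR), and was 2.08-fold higher at 14 days than at 7 days. At 6 weeks it averaged 742 ± 131 CPM and at 14 days 737 ± 21.7 CPM, a log2 fold change of 0.01 (interval -0.34 to 0.35) whose sign changed with the scaling. Set against 2 days, the 6-week value was -0.39 (interval -0.73 to -0.04, adjusted p = 0.0722), which was called with DESeq2, with a minimum count of 50, and in fits lacking 2-day replicate 2, 6-week replicate 2 or both libraries that stand apart. The 14-day value against 2 days was also -0.39 (interval -0.74 to -0.05, adjusted p = 0.0914 in edgeR), called with DESeq2 and without 2-day replicate 2.

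Per kilobase of annotated exon, the scale on which levels of different genes were set side by side, the make-up of the 4 Ifitm transcripts changed at 6 weeks. Ifitm6 held 39.55% ± 4.82, 39.35% ± 1.02 and 38.1% ± 4.01 of their summed CPM per kilobase at 2, 7 and 14 days and 21.1% ± 4.32 at 6 weeks (SD, n = 3 each). Ifitm1 held 7.38% ± 3.01, 2.68% ± 0.353, 7.75% ± 0.701 and 18.5% ± 5.09. For both genes the 6-week libraries lay outside the range of the 9 younger ones. The ratio of Ifitm2 to Ifitm3 per kilobase was 1.12 ± 0.115 at 2 days, 0.786 ± 0.0161 at 7 days, 1.22 ± 0.114 at 14 days and 1.32 ± 0.236 at 6 weeks, with the 7-day libraries below all others. These shares and ratios were not tested.

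**Figure D2:**
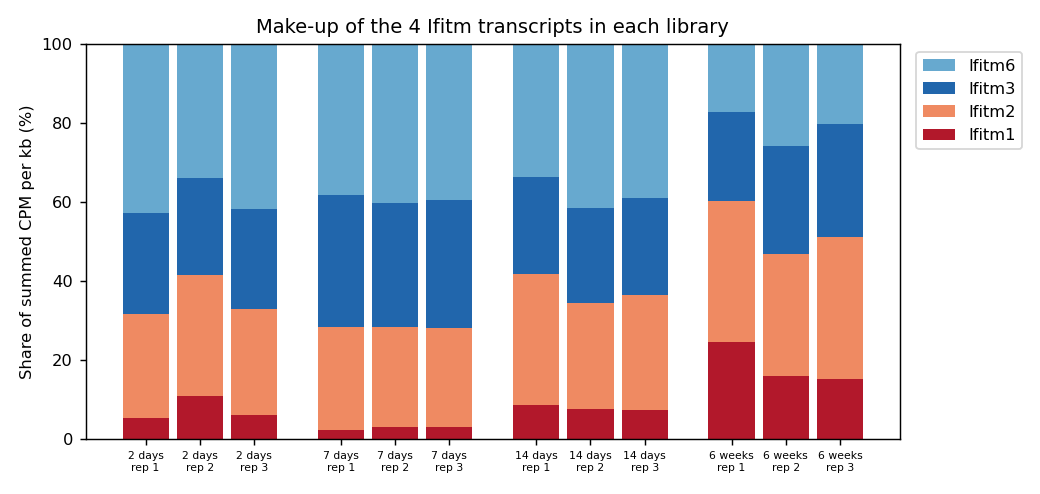
Share (%) of each Ifitm gene in the summed CPM per kilobase of the 4 genes, 1 bar per library, in order of age. The Ifitm6 share is 17.2% to 25.7% in the 6-week libraries and 33.7% to 42.8% in the others, and the Ifitm1 share is lowest in the 7-day libraries.

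Some reads of these genes could also belong to other genes. Of the 606 distinct 50-base transcript windows of Ifitm2, 48.5% also occur in transcripts of another gene, against 10% for Ifitm3, 5.02% for Ifitm1 and 0 for Ifitm6, Bst2 and Ifi27. Gm45717, a protein-coding gene annotated on the same strand, covers 40.9% of the Ifitm2 exon bases, and it is not among the genes of the count table. Windows shared with another of the 7 genes came to 3.3% for Ifitm2, 5.56% for Ifitm3 and 1.42% for Ifitm1. The coding sequences of Ifitm2 and Ifitm3 are 75.9% identical. The 4 processed pseudogenes with shared windows that are in the table had at most 10 counts in any library. The sum of the 4 Ifitm genes does not depend on how reads were divided among them. It was 2153 ± 200 CPM at 2 days, 766.5 ± 123 CPM at 7 days, 1700 ± 180 CPM at 14 days and 3110 ± 257 CPM at 6 weeks, or 0.208%, 0.0823%, 0.1705% and 0.297% of library counts. Its 7-day libraries, at 694 to 908 CPM, lay below all others, and its 6-week libraries, at 2891 to 3393 CPM, above.

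Bst2, the tetherin gene, moved at a different time. It was at 23.0, 17.6 and 24.8 CPM at 2 days, at 27.4, 21.5 and 22.6 CPM at 7 days, at 12.7, 14.6 and 14.2 CPM at 14 days, and at 23.7, 24.7 and 27.4 CPM at 6 weeks. The 14-day libraries lay below all others, and the remaining 3 ages overlapped. At 14 days Bst2 fell to 13.8 ± 0.98 CPM, against 23.8 ± 3.12 CPM at 7 days (log2 fold change -0.78, SE 0.15, adjusted p = 0.001 in edgeR) and 21.8 ± 3.78 CPM at 2 days (-0.65, SE 0.15). At 6 weeks it was 1.83-fold higher than at 14 days (interval 1.47 to 2.27). Between 7 days and 2 days, where the 4 Ifitm genes and Ifi27l2a fell, its log2 fold change was 0.13 (interval -0.18 to 0.44), with no call. The difference between the genes was not tested.

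The 2 genes of the Ifi27 family took different courses, although they are neighbours. Ifi27 was at 23.9, 27.2 and 21.9 CPM at 2 days, at 38.8, 38.2 and 37.4 CPM at 7 days, at 49.9, 40.05 and 36.4 CPM at 14 days, and at 58.8, 62.6 and 69.1 CPM at 6 weeks. The 2-day libraries lay below and the 6-week libraries above all others, while 7 and 14 days overlapped. Ifi27 rose to 38.1 ± 0.696 CPM at 7 days, against 24.3 ± 2.65 CPM at 2 days (log2 fold change 0.65, SE 0.13, adjusted p = 0.00136 in edgeR). Its 14-day level of 42.1 ± 6.99 CPM did not differ from that at 7 days by the test (0.14, interval -0.13 to 0.42), and its 6-week level of 63.5 ± 5.21 CPM was 2.61-fold that at 2 days (interval 2.15 to 3.18).

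Ifi27l2a was at 38.8, 57.9 and 50.98 CPM at 2 days, at 16.5, 12.1 and 13.1 CPM at 7 days, at 32.6, 30.3 and 24.9 CPM at 14 days, and at 111, 87.6 and 139.7 CPM at 6 weeks. No 2 ages overlapped. It fell to 13.9 ± 2.3 CPM at 7 days, against 49.2 ± 9.66 CPM at 2 days (log2 fold change -1.83, SE 0.20, adjusted p = 2.14e-05 in edgeR). At 6 weeks it was 8.12-fold higher than at 7 days (interval 5.93 to 11.1) and 3.85-fold higher than at 14 days (interval 2.85 to 5.21). At 14 days it was lower than at 2 days by a log2 fold change of -0.75 (SE 0.20, adjusted p = 0.0139), a call lost without 2-day replicate 3 (-0.69) or 14-day replicate 3 (-0.64). Per kilobase, Ifi27l2a was 6.43 ± 1.14 times as abundant as Ifi27 at 2 days, 1.15 ± 0.176 times at 7 days, 2.21 ± 0.168 times at 14 days and 5.61 ± 1.03 times at 6 weeks. With the longest transcript of each gene as its length these ratios were 4.28 ± 0.761, 0.768 ± 0.117, 1.47 ± 0.112 and 3.73 ± 0.689, so which gene was the more abundant at 7 days depended on the length used. Another length multiplies all 4 ratios alike, so it cannot change the order of the ages. RefSeq draws Ifi27l2a from 103433873 to 103443680, which spans Ifi27. Strandedness is not given in the sources used here, and reads from such an overlap could belong to either gene.

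In order of level per kilobase, Ifitm6 had the highest mean at 2, 7 and 14 days and Ifitm2 at 6 weeks. The libraries of Ifitm2 and Ifitm3 overlapped at 2, 7 and 14 days, at 763 ± 119 and 681 ± 54.6 CPM per kilobase at 2 days, those of Ifitm6 and Ifitm2 overlapped at 14 days, at 814 ± 24 and 647 ± 142, and those of Ifitm6 and Ifitm3 at 7 days, at 391 ± 69.8 and 321 ± 41.7. At 6 weeks the order was Ifitm2 at 1336 ± 159, Ifitm3 at 1022 ± 63.2, Ifitm6 at 819 ± 144, Ifitm1 at 731 ± 251, Ifi27l2a at 244 ± 56.3, Ifi27 at 43.3 ± 3.55 and Bst2 at 28.0 ± 2.15 CPM per kilobase, and the libraries of Ifitm1, Ifitm3 and Ifitm6 overlapped for each pair of these genes. At 7 days the 4 lowest genes, Ifi27, Bst2, Ifitm1 and Ifi27l2a, lay close together at 26.0, 26.4, 26.8 and 30.0 CPM per kilobase (SD 0.474, 3.46, 6.86 and 4.97). Ifitm2, Ifitm3 and Ifitm6 ranked between 21 and 171 among 15292 genes at every age, and the rank of Ifitm1 ran from 1622 at 7 days to 58 at 6 weeks. These levels depend on the length used: with the longest transcript in place of all exons, Ifi27 came to 39 CPM per kilobase at 7 days and Bst2 to 30.1.

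**Figure D3:**
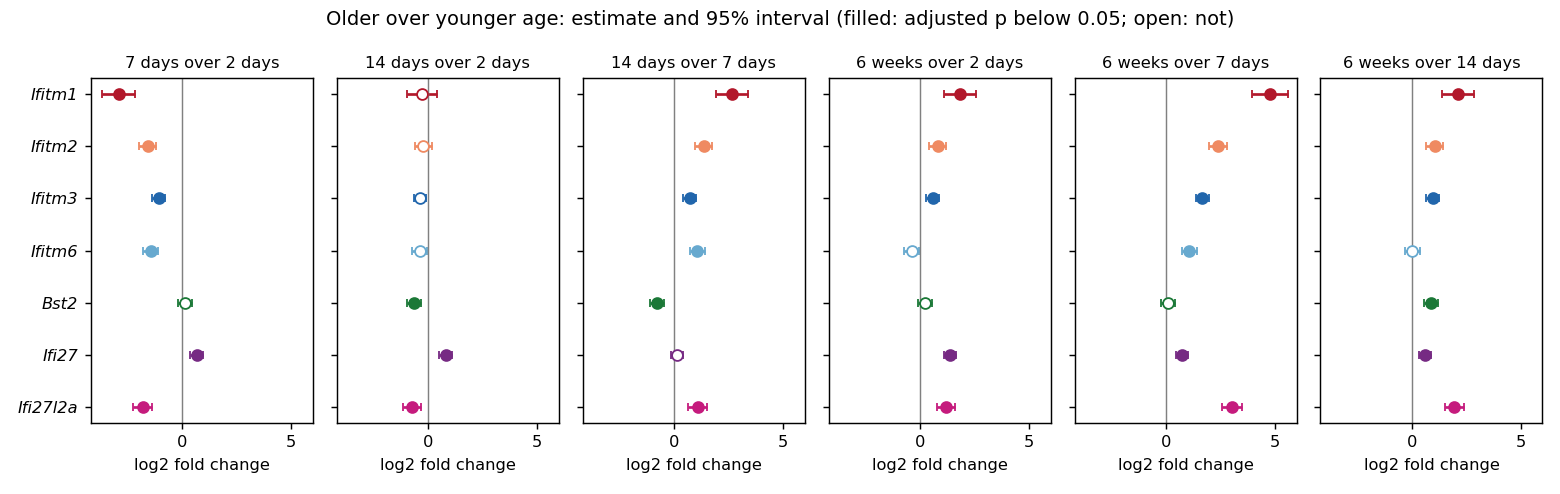
Log2 fold change of the older over the younger age with its 95% interval, for the 7 genes in the 6 pairs of ages; filled points have an adjusted p below 0.05. The plot shows that 5 genes fall at 7 days over 2 days. At 6 weeks 6 rise over 7 days (all but Bst2) and 6 over 14 days (all but Ifitm6).

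Counted by comparison, 5 of the 7 genes were lower and 1, Ifi27, higher at 7 days than at 2 days, where 48.7% of all tested genes were called, 25.8% lower and 22.9% higher. At 14 days compared with 7 days, 5 were higher and 1, Bst2, lower (24% and 21.9% of all genes, 45.9% together). At 14 days compared with 2 days, 1 was higher and 2 were lower (12.8% and 12.3% of all genes, 25.1% together), Ifi27 against Bst2 and Ifi27l2a. DESeq2 called 5 genes in that comparison, adding Ifitm3 and Ifitm6. At 6 weeks compared with 2 days, 5 were higher and 0 lower (19.7% and 20.7% of all genes, 40.4% together), and 1, Ifitm6, was lower once the 2 libraries that stand apart were left out. At 6 weeks compared with 7 days 6 were higher, all but Bst2, and 0 lower (26.6% and 24.5% of all genes, 51% together). Compared with 14 days 6 were higher, all but Ifitm6, and 0 lower (9.26% and 9.68% of all genes, 18.9% together). The median log2 fold change of the 7 genes was -1.45, -0.38 and 1.06 for 7 days over 2 days, 14 days over 2 days and 14 days over 7 days, and 0.81, 1.67 and 0.96 for 6 weeks over 2, 7 and 14 days, while that of all genes stayed between -0.04 and 0.02. These comparisons share libraries, so their counts are not independent of each other.

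Beside them, 40 other interferon-stimulated genes were followed, all of which passed the expression filter. The shares of all genes called in each comparison are those given above for the 7 genes. At 7 days compared with 2 days, 24 of the 40 were lower and 3 higher, with a median log2 fold change of -0.76. At 14 days compared with 7 days 26 were higher and 2 lower, with a median of 0.85. At 6 weeks 31 were higher than at 2 days, 37 higher than at 7 days and 33 higher than at 14 days, with 0 lower in each, and medians of 1.14, 1.78 and 1.05. Between 14 days and 2 days 8 were higher and 4 lower, a count that was 7 and 13 without 2-day replicate 1. The mean was lowest at 7 days and highest at 6 weeks for 26 of the 40, for 4 of the 7 genes described here (Ifitm1, Ifitm2, Ifitm3 and Ifi27l2a), and for 12.2% of all tested genes.

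Among the 40, the smallest p-values of the joint test belonged to Zbp1, Oas1g and Irf7. Zbp1, a sensor of nucleic acid in Z form, averaged 11.96, 4.37, 17.0 and 43.9 CPM at 2 days, 7 days, 14 days and 6 weeks (SD 0.456, 0.46, 3.01 and 6.0). Oas1g, of the oligoadenylate synthetases, averaged 8.97, 3.27, 3.26 and 45.5 CPM (SD 1.55, 0.206, 1.31 and 4.16), and Irf7, a transcription factor of the interferon response, 125, 38.0, 107 and 266 CPM (SD 26.6, 4.59, 9.29 and 32.4). Of 9 genes for interferon receptors and proximal signalling, 5 were lower and 1 higher at 7 days than at 2 days (25.8% and 22.9% of all genes). At 14 days 5 were higher and 1 lower than at 7 days (24% and 21.9%), and 0 higher and 1 lower than at 2 days (12.8% and 12.3%). At 6 weeks 2 were higher and 0 lower than at 2 days (19.7% and 20.7%). Compared with 7 days 7 were higher and 2 lower (26.6% and 24.5%), and with 14 days 4 and 0 (9.26% and 9.68%).

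**Figure D4:**
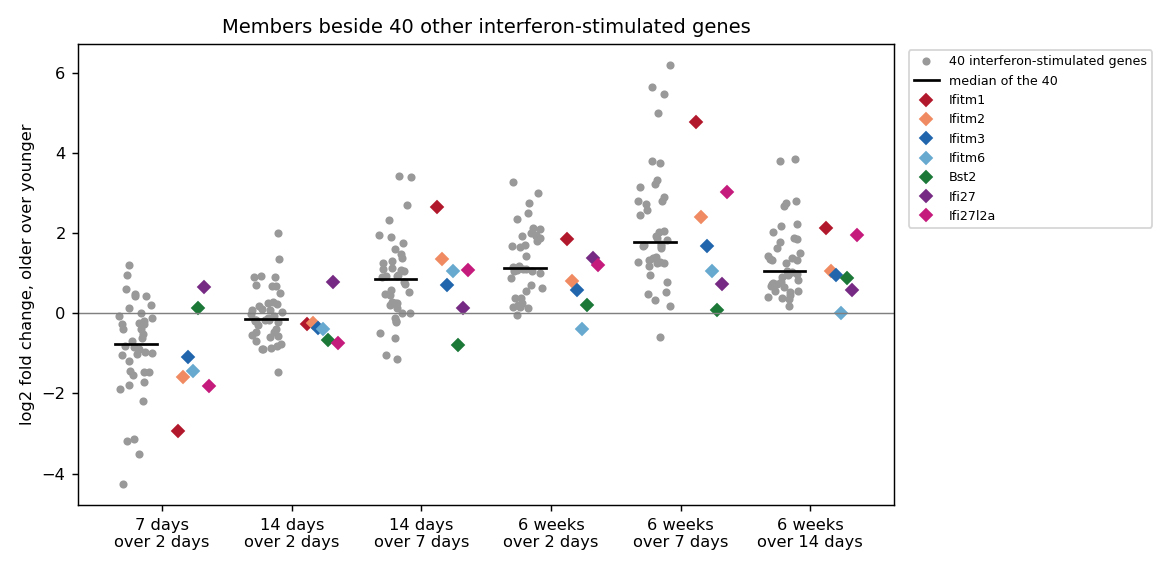
Log2 fold change (older over younger age) of 40 interferon-stimulated genes (grey points, black line for their median) and of the 7 genes (coloured diamonds) in the 6 pairs of ages. Ifitm1 lies beyond the median in the direction of change at 7 days over 2 days and in the 3 comparisons of 6 weeks, and Bst2 and Ifi27 lie above the median at 7 days over 2 days.

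Other genes of the same families were scarce. Ifitm5, known from bone-forming cells, averaged 2.18, 1.87, 2.84 and 2.64 CPM at 2 days, 7 days, 14 days and 6 weeks (SD 0.459, 0.24, 0.726 and 0.434) and was called in none of the 6 comparisons. Ifitm10 averaged 4.23, 3, 6.46 and 6.17 CPM (SD 1.52, 0.526, 1.24 and 0.35) and was higher than at 7 days both at 14 days (log2 fold change 1.11, adjusted p = 0.00341 in edgeR) and at 6 weeks (1.04, adjusted p = 0.00406). Ifitm7 and Ifi27l2b had 16 and 7 counts over the 12 libraries and were not tested.

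Likeness of pattern was measured as the root-mean-square difference in log2 CPM between a pair of genes over the 12 libraries, after each gene was centred on its own mean. Genes were not scaled to a common range, so this value depends on range as well as on the order of the ages. Within the 7 genes Ifitm2 and Ifitm3 were closest, at 0.31, followed by Ifitm2 and Ifi27l2a, at 0.39. Ifitm1 and Bst2 were farthest apart, at 1.79, with SDs of log2 CPM of 1.73 and 0.37. Among 12849 protein-coding candidates the nearest to Ifitm2 were Myd88 (0.1) and Mvp (0.13), to Ifitm3 Ddx58 (0.14) and Fkbpl (0.14), and to Ifitm6 Dbnl (0.11) and BC004004 (0.15). Nearest to Ifi27l2a were Rtp4 (0.27) and Usp18 (0.27), and to Ifitm1 Slfn5 (0.43) and Phospho1 (0.44). Lyplal1 (0.13) and Cndp2 (0.15) were nearest to Bst2, and Slc45a4 (0.14) and Scp2 (0.15) to Ifi27. Ddx58, Rtp4 and Usp18 are among the 40 interferon-stimulated genes. Myd88, the nearest to Ifitm2, averaged 249, 90.9, 219.8 and 412 CPM at 2 days, 7 days, 14 days and 6 weeks (SD 35.7, 11.6, 37.6 and 67.8).

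Levels of marker lists also changed with age. The sum of 14 monocyte and macrophage markers ran from 558 to 810.3 CPM at 2 days, 2022 to 2080 at 7 days, 1234 to 1655 at 14 days and 4194 to 4507 at 6 weeks, and none of the 14 was at 0. At 7 days compared with 2 days 11 of the 14 were higher and 0 lower (22.9% and 25.8% of all genes). At 6 weeks 11 were higher than at 7 days and 0 lower (26.6% and 24.5%). At 14 days compared with 7 days 3 were higher and 9 lower (24% and 21.9%). At 6 weeks compared with 14 days 11 were higher and 2 lower (9.26% and 9.68%). The monocyte and macrophage sum and the Ifitm sum moved in opposite directions between 7 and 2 days and between 14 and 7 days, and both were highest at 6 weeks. Not every marker of the list followed its sum. Ccr2 averaged 15.4, 12.8 and 24.3 CPM at 2, 7 and 14 days, and Cx3cr1 9.08, 8.57 and 45.2 CPM. Both had their lowest mean at 7 days, though neither was called lower there than at 2 days. The 8 stem and progenitor markers summed to 177 to 380.2 CPM at 2 days, 73 to 87.3 at 7 days, 64.2 to 98.3 at 14 days and 35.7 to 63.5 at 6 weeks. The 12 neutrophil markers summed to 76582 to 85436 CPM at 7 days and 73569 to 95611 CPM at 2 days, overlapping. Of the 12, 2 were higher and 5 lower at 7 days than at 2 days, against 22.9% and 25.8% of all genes. Csf3r, Cxcr2, Mmp9, S100a8, S100a9 and Lcn2 had their lowest mean at 7 days and highest at 6 weeks. Csf3r averaged 2053, 697, 3755 and 5974 CPM at 2 days, 7 days, 14 days and 6 weeks. Retnlg was also lowest at 7 days, Ly6g, Camp, Ltf and Ngp at 2 days, and Mmp8 at 6 weeks. S100a8, S100a9, Lcn2 and Ngp were not called in the joint test. For 8 markers of plasmacytoid dendritic cells, which carry Bst2, the sums were 97.7 to 106 CPM at 2 days, 139.8 to 187 at 7 days, 128 to 131 at 14 days and 122 to 135 at 6 weeks. Runx2 made up much of these sums, at 46.6 ± 5.54 CPM at 2 days, 32.9 ± 3.94 at 7 days, 82.1 ± 14.4 at 14 days and 66.4 ± 9.38 at 6 weeks. Without it, a split made after the values were seen, the other 7 markers summed to 49.5 to 63.0 CPM at 2 days, 102.5 to 157 at 7 days, 29.4 to 56.4 at 14 days and 58.8 to 66.5 at 6 weeks. The 2-day and 14-day ranges overlapped. Among these 7, Ly6d and Tcf4 had their lowest mean at 14 days, Pacsin1 and Cox6a2 at 2 days, Siglech and Ccr9 at 6 weeks, and Klk1 at 7 days. At 14 days compared with 7 days 1 of the 7 listed markers that passed the expression filter, Runx2, was higher and 3 were lower. The shares of all genes were 24% and 21.9%.

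Of the remaining lists, 8 B and plasma cell markers summed to 246 to 322 CPM at 2 days, 526 to 595 at 7 days, 148 to 391 at 14 days and 509.6 to 550.4 at 6 weeks, and 8 T and NK cell markers to at most 88.4 CPM in any library. Erythroid markers were highest at 7 days, at 305 to 394 CPM over 7 genes, against at most 118 CPM at the other ages. The sum of 9 mast cell, basophil and eosinophil markers was highest at 2 days, at 1533 to 2936 CPM, against at most 275 CPM elsewhere. Tpsb2 and Cpa3 made up much of the 2-day sum, at means of 1403 and 692.5 CPM. Tpsab1 was at 0 at 14 days and 6 weeks. Not every marker followed the sum: Epx and Prg2 had their highest mean at 7 days, and Siglecf and Ccr3 at 6 weeks. The 5 megakaryocyte and platelet markers summed to at most 47.6 CPM and the 7 stromal and endothelial ones to at most 117 CPM. The part of these cell types in the levels of the 7 genes was not tested.

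**Figure D5:**
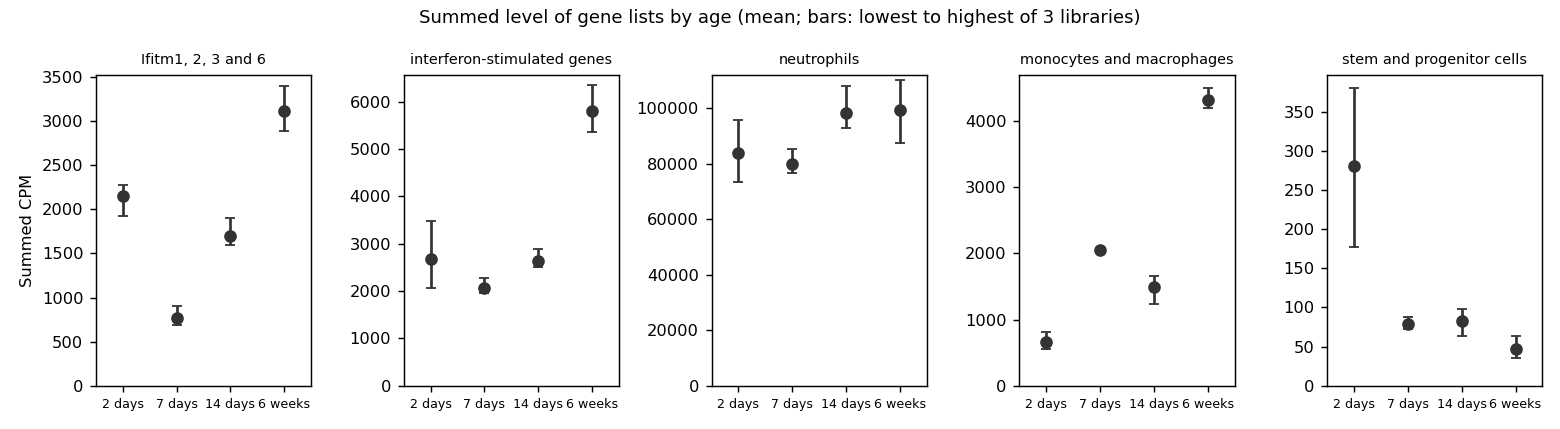
Summed CPM by age (linear axes from 0) of the 4 Ifitm genes, the 40 interferon-stimulated genes and 3 marker lists; points are means and bars run from the lowest to the highest of 3 libraries. The Ifitm sum is lowest at 7 days, where the monocyte and macrophage sum lies above its 2-day and 14-day values, and both sums are highest at 6 weeks.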

How the data were processed

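The authors deposited 1 table of whole-number counts, with Ensembl genes as rows and the 12 libraries as columns. The submitters' processing notes name RSEM 1.2.3, DESeq2 and build mm10 but give none of them a role; the counts may be RSEM estimates rounded to whole numbers, which would divide reads among similar genes. Read length and strandedness are not given in the sources used here. The labels' protocols give Trizol extraction and cDNA synthesis from random hexamers. GENCODE M21 gave a symbol to 37570 of the 38887 genes, and the other 1317 stayed in the totals.

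Genes passing filterByExpr (minimum count 10), 15494 in all, were tested with edgeR 4.0.16 (quasi-likelihood, TMM factors, R 4.3.3) in 1 model of the 12 libraries with age as the only term. A gene was called at a p-value below 0.05 after Benjamini-Hochberg adjustment over all genes, and each of the 6 comparisons was older over younger. SE is the absolute log2 fold change over the square root of F, and 95% intervals use that SE. Alternatives covered scaling, filter, tool (DESeq2 1.42.0, limma 3.58.1), samples, a replicate block and leaving out libraries. The procedure was tested on simulated data. Lists and members were chosen with earlier results of these data known. Named genes are the 7 members, the 2 nearest in pattern to each, 3 listed interferon-stimulated genes with the smallest joint p, and other family genes. Same-numbered libraries deviated together (correlations of 0.111 to 0.313) between 7 and 2 days, and not between the other pairs of ages. Differently numbered libraries of 7 and 2 days were at -0.316 to 0.104, and those of any 2 ages reached 0.357.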

Additional observations from a re-analysis of the deposited data

How the results depend on the processing

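Over 22 alternatives for 7 days over 2 days and 21 for each other pair of ages, 34 of the 42 member results (7 genes in 6 pairs) kept their direction and their side of the threshold, and no called result changed direction. Signs changed only for uncalled log2 fold changes, and the cause was not tested. Ifitm1 at 14 days over 2 days was 0.165 without 2-day replicate 2 (range -0.492 to 0.165 with 1 library left out), Ifi27 at 14 over 7 days was -0.014 without the 2 libraries that stand apart, and Bst2 at 6 weeks over 7 days was -0.093 with library totals alone. Ifitm6 at 6 weeks over 14 days was -0.068 with library totals alone, -0.006 with limma-voom, -0.013 with a minimum count of 50, -0.001 with only the 2 ages, -0.003 with the replicate block, and -0.144 to 0.095 with 1 library left out. Scaling by library totals alone put the all-gene median at 0.139 at 7 days over 2 days and at -0.162 at 6 weeks over 7 days, where 40.7% of calls were then higher, against 52.1%. At 14 days over 2 days, DESeq2 called 5 members (1 higher, 4 lower) where edgeR called 3, and 2 to 4 were called with 1 library left out; the 40 interferon-stimulated genes gave 5 calls in place of 12 in a fit of only those ages, and 8 to 20 with 1 library left out. Calls over all genes moved from 3882 there to 1952 with only the 2 ages, 5833 without 2-day replicate 2 and 6249 without both libraries that stand apart, and at 6 weeks over 14 days from 2934 to 4685 without 2-day replicate 2, 1709 and 1677 without 6-week replicates 1 and 3, and 4869 without both. Leaving out those 2 libraries together, the block on 2 and 7 days alone, and the other length for the ratio of Ifi27l2a to Ifi27 were chosen after seeing the data. With the longest transcript as length, levels per kilobase were 1191 and 906.5 for Ifitm6 at 2 and 14 days, 24.88, 39, 43.09 and 64.99 for Ifi27 at 2 days, 7 days, 14 days and 6 weeks, 30.09, 17.48 and 31.92 for Bst2 at 7 days, 14 days and 6 weeks, and 208.4 for Ifitm1 at 14 days, and the ratio of Ifi27l2a to Ifi27 was 4.281, 0.7677, 1.474 and 3.735 at 2 days, 7 days, 14 days and 6 weeks.

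Same-numbered libraries had correlations of -0.389 to 0.313 over 18 pairs, and 4 of 12 libraries correlated best with their own number. Differently numbered libraries had correlations of -0.316 to 0.357 over 36 pairs. With the replicate block, no call of a member changed; at 7 days over 2 days 6 members were called (1 higher, 5 lower), both over all ages and with those 2 ages alone. The mix of sexes, which the labels do not give, cannot be told apart from age between 2 or 7 days and the later ages. Having 3 libraries an age of unstated origin limits every test.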
